A study of Mus musculus with 26 samples.

Results

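The Dlk1-Dio3 domain is an imprinted gene cluster on mouse chromosome 12. Its 6 genes described here, *Meg3*, *Rian*, *Mirg*, *Dlk1*, *Dio3* and *Rtl1*, were taken by symbol from the 24409 genes of the deposited expression table, and all 6 were found. The RNA-seq compared 3 libraries of wild-type (WT) ES cells with 2 libraries of ES cells without ZFP57 (ZFP57 KO), out of 26 samples in the series. All 5 libraries came from male ES cells of the C57BL/6J strain, derived from the inner cell mass of embryos that were collected as morulae at E2.5 and cultured further, and kept in inhibitors of Erk and Gsk3 with LIF for at most 15 passages, with passage numbers matched between WT and KO. The KO is zygotic and removes coding exons 4 and 5 of *Zfp57*. The study calls its WT ChIP-seq replicates biological, but the labels do not say whether each numbered library is a line of its own, so p-values measure the spread between these libraries, which may be partly technical. ZFP57 binding came from ChIP-seq of 3 WT and 2 KO libraries of the same kind of cells and is deposited as peak positions with no score, so binding was not compared between libraries.

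In this domain the chromosome inherited from the mother makes long non-coding RNAs, while the chromosome inherited from the father makes messenger RNAs for proteins. The switch between both programmes is the IG-DMR, an imprinting control region (ICR) between *Dlk1* and *Meg3* that carries DNA methylation on the paternal chromosome. ZFP57 is a KRAB zinc finger protein that binds the methylated hexanucleotide TGCCGC and recruits KAP1, and it is known for keeping methylation at ICRs after fertilization.

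*Zfp57* itself read 75.9, 72.3 and 70.6 FPKM (fragments scaled for transcript length and library size) in the WT libraries and 19 and 21.6 in the KO libraries. It fell by 1.84 (SE 0.06) on the log2 scale, with an adjusted p of 2.3e-04 from limma. The table gives 1 value per gene, so RNA from the remaining exons cannot be told apart from RNA of the deleted part. All 8 naive pluripotency markers examined were detected, with sums of 680.1 to 698.6 FPKM in WT and 757.4 to 815.0 in KO. Of these *Klf4*, *Tfcp2l1*, *Esrrb* and *Pou5f1* were called higher, by 0.74, 0.60, 0.42 and 0.27 on the log2 scale, and *Klf2* fell by 0.28. The summed markers of fibroblast feeder cells, 5 genes with *Col3a1* at 0 throughout, stood at 0.34 to 0.36 FPKM in WT and 0.16 to 0.33 in KO. Among genes marking the first lineages, *Sox7* (3 of 6 markers of primitive endoderm tested) and *Eomes* (4 of 6 of trophoblast tested) were called higher in KO. So were *T* (2 of 4 of mesoderm tested) and *Sox1* (3 of 4 of neuroectoderm tested), each the only 1 of its list. *Tfap2c* and *Nes* were called lower. Shares over all 14612 tested genes were 18.8% called higher and 22.3% lower. Summed over each list, primitive endoderm markers lay at 0.64 to 0.70 FPKM in WT and 0.90 to 1.36 in KO, but without *Sox7* at 0.50 to 0.61 and 0.42 to 0.46. The trophoblast sums, 15.8 to 18 FPKM in WT and 13.9 to 15.7 in KO, were mostly *Tfap2c*, and without it and *Eomes* the other 4 markers summed to 0.12 to 0.32 in WT and 0.32 to 0.38 in KO. The neuroectoderm sums, 2.73 to 3.14 FPKM in WT and 1.93 to 2.13 in KO, were mostly *Nes*, and without it and *Sox1* the other 2 summed to 0.09 to 0.18 in WT and 0.09 to 0.20 in KO. The mesoderm sums were 0.60 to 0.84 FPKM in WT and 0.93 to 1.38 in KO, and 0.31 to 0.37 and 0.26 to 0.36 without *T*. The part of these markers in the values of the domain was not tested. The worth of 1 fragment, read from the steps between low FPKM values of short genes, implied about 50900000 to 58900000 fragments per library.

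Within 100 kb of the domain the C57BL/6J list of ZFP57 peaks, 1423 in all, held 2 peaks. The first covers the IG-DMR at chr12:109527075-109528603 (GRCm38, mm10), 63739 bp past the end of *Dlk1* and 12393 bp before the start of *Meg3*, in an intron of *Gm34081* on the minus strand. At 1529 bp it ranked 4 by width among the 1423 peaks, against a median of 291 bp. It held 66 CpG (median 11) and 7 copies of TGCCGC on either strand (median 1). Only 1.77% of its bases were soft-masked repeats, compared with a median of 72.0%. The second peak, at chr12:109820534-109821194, is intergenic and lies 71076 bp past *Mirg*. It was 661 bp wide, carried 1 copy of TGCCGC and was soft-masked over 100% of its length. The shorter list of 743 peaks named for hybrid lines, all of them also in the first list, held the IG-DMR peak but not the peak past *Mirg*. Within 1 Mb of the domain a further peak, in both lists, lay at chr12:108726191-108726523. It is intergenic, 725962 bp before *Dlk1*, and held 0 copies of TGCCGC.

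Of the 7 copies in the IG-DMR peak, 5 lay on the plus strand between positions 1222 and 1365 of the peak, with 46, 46, 28 and 23 bp from one start to the next. The other 2, on the minus strand, stood apart at positions 147 and 534. Over its whole width the peak had 4.58 copies per kb, near the median of 3.80. In the C57BL/6J list 92.0% of peaks held TGCCGC, compared with 5.55% of intervals of the same width placed 2000 bp upstream. The stretch with the run of copies is printed because it is the control element of the domain, and the first 300 bases of the peak past *Mirg* are printed for contrast. Both are plus strand sequences from the RefSeq copy of GRCm38, at chr12:109528229-109528528 and chr12:109820534-109820833. Capitals mark TGCCGC or its reverse complement GCGGCA.
IG-DMR peak: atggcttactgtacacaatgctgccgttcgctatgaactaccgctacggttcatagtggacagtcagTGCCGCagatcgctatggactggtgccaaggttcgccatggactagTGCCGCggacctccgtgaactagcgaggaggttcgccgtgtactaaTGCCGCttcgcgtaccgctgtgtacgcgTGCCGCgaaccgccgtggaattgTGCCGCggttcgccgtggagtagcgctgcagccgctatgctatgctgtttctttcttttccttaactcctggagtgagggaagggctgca
Peak past Mirg: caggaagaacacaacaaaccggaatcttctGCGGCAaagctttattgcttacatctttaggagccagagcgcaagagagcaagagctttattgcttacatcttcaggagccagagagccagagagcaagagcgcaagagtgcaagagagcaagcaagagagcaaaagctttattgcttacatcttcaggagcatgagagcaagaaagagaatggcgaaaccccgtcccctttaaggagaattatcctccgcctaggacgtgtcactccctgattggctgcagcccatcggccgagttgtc

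**Figure D1:**
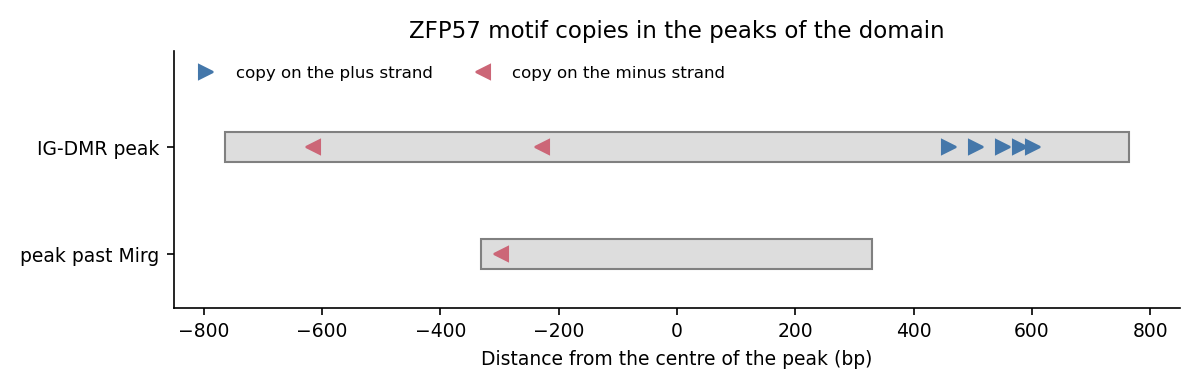
Position of each TGCCGC copy (arrowheads, pointing right for the plus and left for the minus strand) in the 2 ZFP57 peaks of the domain, in bp from the centre of each peak, with grey bars for the extent of the peaks. The IG-DMR peak shows 5 plus-strand copies grouped from 459.5 to 602.5 bp right of its centre, whereas the peak past Mirg has 1 copy near its left end.

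The maternally expressed RNAs rose together in ZFP57 KO ES cells. *Meg3*, *Rian* and *Mirg* reached 4.63, 5.81 and 7.80 times their WT mean, and for each of them both KO libraries lay above all WT libraries. Of all 14612 genes tested, 18.8% were called higher, and 95 genes (0.65%) were called higher by 2 or more on the log2 scale. All 3 RNAs were among those 95, but 56 of them were rows of the domain itself. Of these 52 were small RNA rows, 17 of them inside the annotated spans of *Meg3*, *Rian* and *Mirg* and the others elsewhere in the domain. Outside the domain 39 of 14542 tested genes (0.268%) were called higher by as much, and 18.5% were called higher at all. In bulk RNA a larger share of expressing cells and more RNA per cell cannot be told apart.

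*Meg3* (chr12:109540996-109571729, plus strand), a long non-coding RNA with known growth-suppressing activity, read 3.52, 2.91 and 2.34 FPKM in the WT libraries and 15.0 and 12.1 in the KO libraries. The groups stood well apart, and WT 3 was the lowest library of all. The means were 2.92 ± 0.59 (SD, n = 3) and 13.5 ± 2.08 FPKM (SD, n = 2), with a log2 fold change of 2.18 (SE 0.18, 95% interval 1.75 to 2.61, limma's adjusted p = 5.8e-04). Its promoter, 250 bases before to 50 after the annotated start, is printed because it is the start nearest to the IG-DMR peak. Among the 6 promoters found for 5 of the 6 genes it was the only one with TGCCGC. It has 1 copy on the minus strand and 1 cyclic AMP response element, TGACGTCA. Of 32851 mouse promoters of this length, 11.6% held TGCCGC and 1.79% held TGACGTCA on either strand, and a match describes the letters only. The sequence is from RefSeq, GRCm38, plus strand, chr12:109540746-109541045, with both motifs in capitals.
Meg3 promoter: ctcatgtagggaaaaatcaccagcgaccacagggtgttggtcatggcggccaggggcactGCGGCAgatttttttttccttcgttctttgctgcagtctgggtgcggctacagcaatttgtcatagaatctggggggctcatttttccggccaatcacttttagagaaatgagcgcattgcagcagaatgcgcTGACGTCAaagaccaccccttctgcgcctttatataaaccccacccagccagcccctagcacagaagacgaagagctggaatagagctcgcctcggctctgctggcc

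*Rian* (chr12:109603945-109661716, plus strand) is the host transcript of the C/D box snoRNAs of the domain. It read 22.8, 21.1 and 18.2 FPKM in WT and 129.9 and 110.3 FPKM in KO, again with no overlap and with WT 3 lowest. The mean went from 20.7 ± 2.30 (SD, n = 3) to 120.1 ± 13.9 FPKM (SD, n = 2), and the 95% interval of the log2 fold change ran from 2.27 to 2.80. Per length it was the most abundant of the 6 genes in every library. By mean level it moved from place 2100 to place 245 of the 24409 genes in the table.

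*Mirg* (chr12:109734981-109749458, plus strand) is the non-coding RNA annotated at the distal end of the large microRNA cluster. Of the 61 microRNA rows of the domain 10 lie inside its annotated span and 30 between *Rian* and its start. Its WT libraries read 2.44, 2.12 and 1.35 FPKM and its KO libraries 16.0 and 14.7 FPKM. Its change was the largest among the 4 of the 6 genes that were tested, at 2.94 on the log2 scale (SE 0.23, 95% interval 2.38 to 3.49, limma's adjusted p = 5.6e-04), which ranked 24 among the 14612 tested genes. *Rian* ranked 64 and *Meg3* ranked 91. Rows of the domain made up 16 of the 23 rows above *Mirg*, 45 of the 63 above *Rian* and 59 of the 90 above *Meg3*. By mean level *Mirg* passed from place 9117 to 2869 and *Meg3* from 8099 to 3229.

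**Figure D2:**
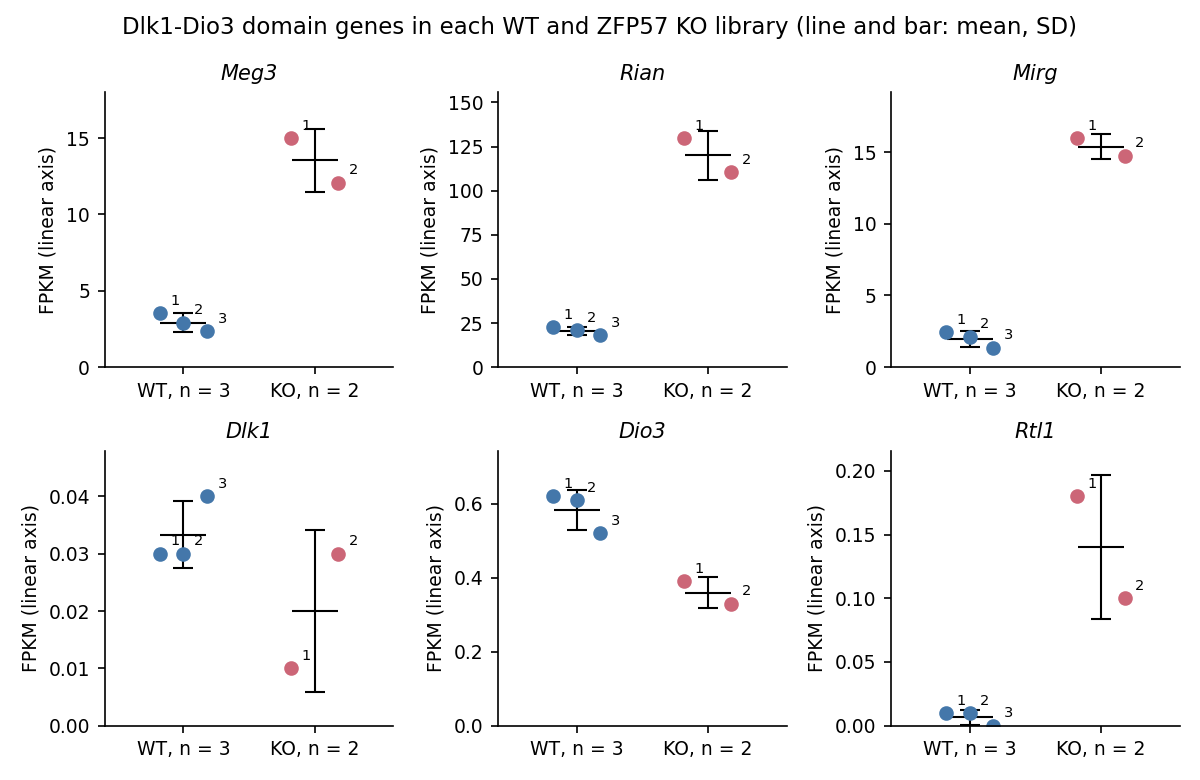
FPKM of each of the 6 genes in the 3 WT and 2 ZFP57 KO libraries, with a linear axis from 0 for each gene, points numbered by replicate, and a line and bar for the mean and SD. The KO points lie above all WT points for Meg3, Rian, Mirg and Rtl1, below them for Dio3, and overlap them for Dlk1, where no library exceeds 0.04 FPKM.

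The proportions of the 3 RNAs were compared as log2 ratios within each library. The log2 ratio of *Mirg* over *Meg3* was -0.53, -0.46 and -0.79 in the WT libraries and 0.09 and 0.29 in the KO libraries, so *Mirg* was below *Meg3* in each WT library and above it in each KO library. The difference of the means was 0.78, and the two-sided exact permutation test gave p = 0.1, the smallest that this test can give for 3 against 2 libraries. The log2 ratio of *Rian* over *Meg3* averaged 2.84 ± 0.14 (SD, n = 3) over the WT libraries and 3.15 ± 0.06 (SD, n = 2) over the KO libraries, also without overlap (difference 0.32, exact permutation p = 0.1). For *Rian* over *Mirg* the difference was -0.47, again without overlap (exact permutation p = 0.2). With this floor the test cannot pass 0.05, and no other test of the ratios was run. Summed over the 3 RNAs the level was 28.7, 26.1 and 21.9 FPKM in WT and 160.9 and 137.1 in KO. *Rian* made up 79.2 to 83.2% of this sum in WT, and 80.7% and 80.5% in KO. The order of the RNAs in FPKM and these shares rest on the transcript lengths used, which are not given. Curated transcripts of *Meg3* run from 1913 to 11473 bp, and that of *Mirg* has 1300 bp.

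Small RNAs encoded within the domain are rows of the same table. The libraries were read as paired 150 bp reads of total RNA, so these rows count fragments over the place of the small RNA in a longer transcript and do not measure the mature molecules. Of 61 microRNA rows of the domain, 58 were tested, 48 were called higher in KO and 0 lower, with a median log2 fold change of 2.71 against -0.01 over all tested genes, of which 18.8% were called higher. Both KO libraries exceeded all WT libraries in 54 of the tested rows, compared with 30.3% of all tested genes. *Mir673*, named after its value was seen, was the only tested row with a value below 0, at -0.42, and was not called. *Mir154*, *Mir376b* and *Mir381*, named likewise, read 0 in all WT libraries and are counted among the rows called higher. They passed the filter on the mean of the 5 libraries only through KO, so they could only come out higher. The 7 snoRNA rows were all called higher, by 2.45 to 3.29. Rows inside *Rian* were called higher in 9 of 10 cases (median 2.69), and rows inside *Mirg* likewise in 9 of 10 (median 2.53). The 30 microRNA rows between both were all tested, and 25 were called higher (median 2.74). Rows within a host share its RNA and are not independent of it.

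The genes of the paternal programme read under 1 FPKM in all libraries. *Dlk1* was close to undetected, *Rtl1* read higher in KO at a very low level, and *Dio3* was called lower in KO. Differences between these genes were not tested.

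*Dlk1* (chr12:109452485-109463336, plus strand) encodes a transmembrane protein related to Notch ligands that restrains the differentiation of precursor cells. It read 0.03, 0.03 and 0.04 FPKM in WT and 0.01 and 0.03 in KO, about 2.1 to 9.5 fragments per library. The groups overlapped, and the mean was below the 0.1 FPKM required for a test. The difference was -0.16 on the log2(FPKM + 0.1) scale (exact permutation p = 0.3), and a change was not detectable at this depth.

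*Rtl1* encodes a retrotransposon-derived protein needed in the placenta. Its curated transcript lies on the minus strand at chr12:109589193-109600330, between *Meg3* and *Rian*. It read 0.01, 0.01 and 0.00 FPKM in WT and 0.18 and 0.10 in KO, which is about 3.5, 3.7 and 0 fragments against 59.9 and 35.1. Both KO libraries exceeded all WT libraries, as in 24.2% of the 19757 genes above 0 in some library. The ratio of the means was 21, with a 95% interval from 6.19 to 163.4 that covers counting and rounding error only. The mean of *Rtl1* was below the filter, and its difference on the log2(FPKM + 0.1) scale was 1.15.

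The transcript on the opposite strand of *Rtl1*, listed as *6430411K18Rik* (chr12:109591537-109592851, 1 exon of 1315 bp, plus strand), belongs to the maternal programme. It read 2.74, 2.66 and 1.73 FPKM in WT and 22.6 and 18.1 FPKM in KO, and rose by 3.06 (SE 0.21, limma's adjusted p = 4.2e-04). Its exon lies over 100% of its length within exons of *Rtl1* on the other strand. In fragments, *Rtl1* amounted to 1.76, 1.82 and 0% of the antisense RNA in the WT libraries and to 3.86 and 2.68% in the KO libraries. How strand was used in the counting is not given in the sources used here, so fragments of *Rtl1* and stray fragments of the antisense RNA cannot be told apart. Of 7 microRNA rows inside the span of *Rtl1*, 6 were tested and 5 were called higher in KO, and the tested rows ran from 2.46 to 3.57.

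*Dio3* (chr12:110279230-110281097, plus strand) encodes the type 3 deiodinase, which inactivates thyroid hormone. It read 0.62, 0.61 and 0.52 FPKM in WT and 0.39 and 0.33 in KO, or about 34 to 67 fragments per library. Both KO libraries lay below all WT libraries, as they did for 33.1% of all tested genes. *Dio3* fell by 0.57 on the log2 scale (SE 0.16, 95% interval of the change -0.96 to -0.18, limma's adjusted p = 0.033), and 22.3% of all tested genes were called lower. The call did not hold when any of the 5 libraries was left out, where limma's adjusted p lay between 0.054 and 0.13 and the change between -0.67 and -0.48. It was also lost under quantile normalization (-0.40, limma's adjusted p = 0.10) and when genes of low level were kept in the test (adjusted p = 0.052). *Dio3os*, a non-coding RNA beside *Dio3*, was under the filter at 0.10, 0.07 and 0.03 FPKM in WT and 0.12 and 0.13 in KO.

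Altogether 4 of the 6 genes passed the filter. Of these 3 were called higher and 1 lower, where 41.1% of all tested genes were called in either direction. On chromosome 12, 26% of 573 tested genes were called higher and 17.6% lower, and without the rows of the domain 17.9% of 503 were called higher and 19.9% lower.

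**Figure D3:**
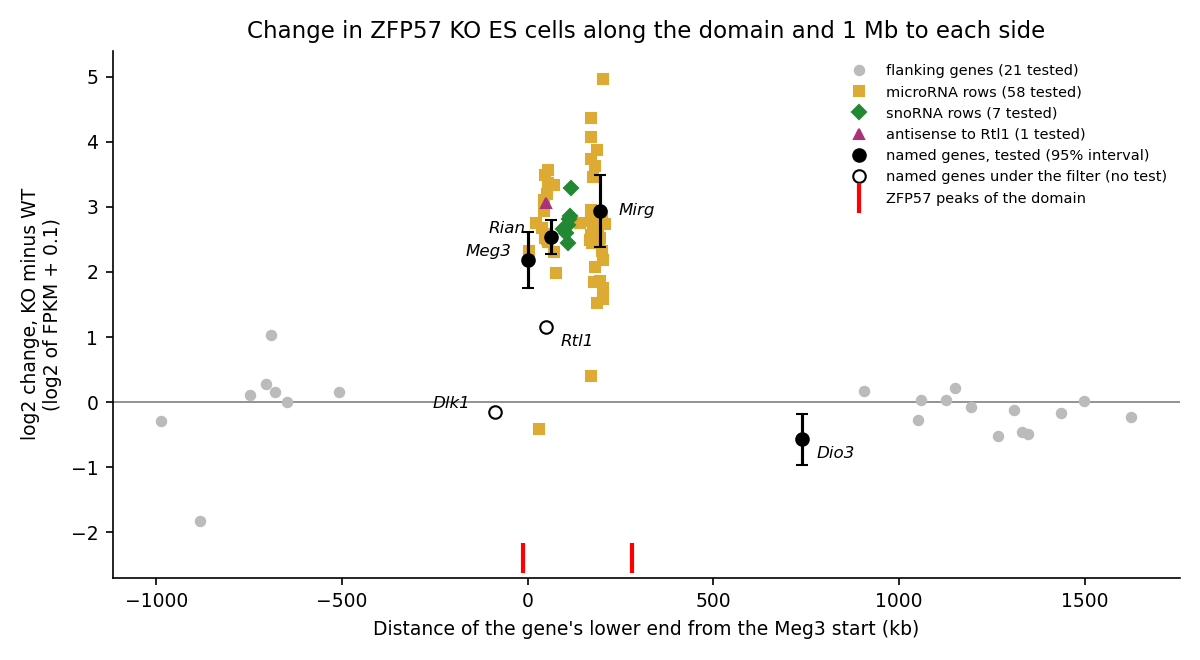
Change in ZFP57 KO ES cells (log2, KO minus WT, on FPKM + 0.1) against the distance in kb of the lower end of each gene from the Meg3 start, over the domain and 1 Mb to each side. Filled black points with 95% intervals are the tested genes of the domain, and open circles are Dlk1 and Rtl1. Coloured points are small RNA rows and the RNA antisense to Rtl1, and grey points are flanking genes. Red ticks are the 2 ZFP57 peaks of the domain, and a further peak before Dlk1 is not drawn. The 3 maternal RNAs lie between 2.18 and 2.94, and the 21 tested flanking genes between -1.83 and 1.03, with those called between -0.52 and 0.21.

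Within 1 Mb on either side of the domain 27 other genes are listed, of which 21 were tested, 2 were called higher and 4 lower. Their median log2 fold change was 0.01 and their range -1.83 to 1.03. The share called was below the 41.1% of all tested genes. *Mok*, a kinase gene, fell by 0.52, *Tecpr2* by 0.48, *Cinp* by 0.45 and *Evl* by 0.28. *Hsp90aa1*, which encodes an HSP90 chaperone, rose by 0.21 and *Ppp2r5c*, a regulatory subunit of protein phosphatase 2A, by 0.17. The ends of the range were not called. *Slc25a47*, a mitochondrial carrier gene, read 0.23, 0.05 and 0.16 FPKM in WT and 0.37 and 0.39 in KO, so both KO libraries lay above all WT libraries (log2 fold change 1.03, 95% interval 0.19 to 1.88, limma's adjusted p = 0.057). *Mir342* read 1.19 to 1.28 FPKM in WT and 0 and 1.28 in KO, so its -1.83 rests on KO 1. *Begain*, a neighbour of *Dlk1*, read 0.24, 0.18 and 0.12 FPKM in WT and 0.14 and 0.29 in KO, and the groups overlapped.

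**Figure D4:**
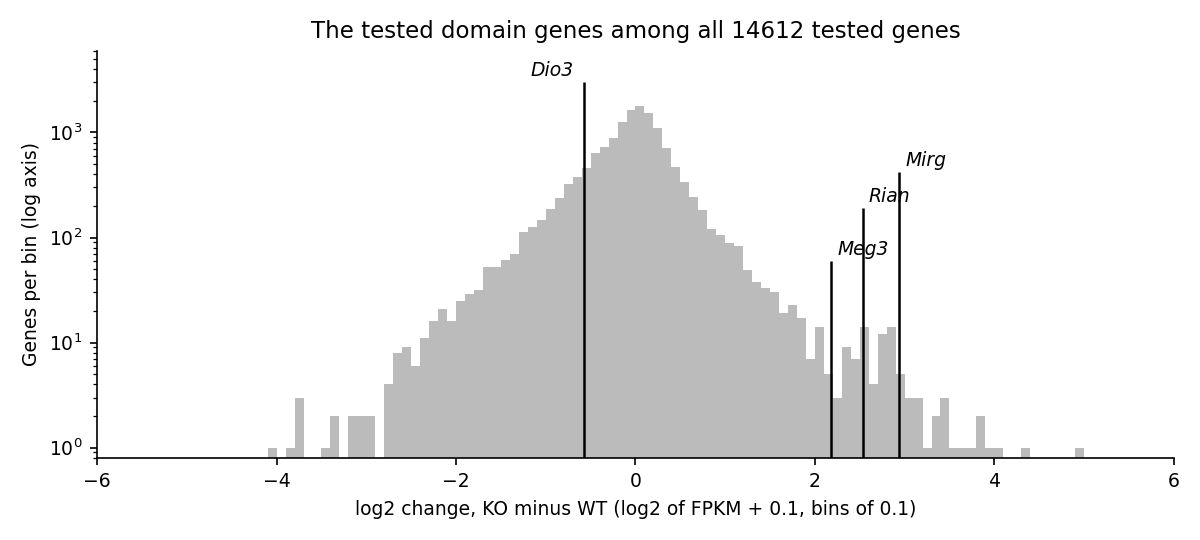
Number of genes (log axis) per bin of 0.1 in log2 change, KO minus WT, over all 14612 tested genes, with lines at the 4 tested genes of the domain. Meg3, Rian and Mirg lie in the right tail at 2.18, 2.53 and 2.94, and Dio3, at -0.57, lies within the bulk.

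A list of 17 genes known to act on imprints was examined to see which other factors differed between the same libraries. All 17 were tested, 4 were called higher and 4 lower, where 41.1% of all tested genes were called in either direction, and the median change was -0.01. The count is near that background. Besides *Zfp57*, *Dppa3* and *Dnmt3a* fell by more than 1 on the log2 scale. *Dppa3*, which encodes a maternal factor that shields methylation in the zygote, read 24.2, 35.6 and 37.0 FPKM in WT and 9.04 and 4.43 in KO, and fell by 2.30 (SE 0.32, limma's adjusted p = 0.0027). *Dnmt3a*, a de novo methyltransferase, read 10.4, 9.21 and 11 FPKM in WT and 3.25 and 2.84 in KO, and fell by 1.71 (SE 0.10, limma's adjusted p = 3.3e-04). *Trim28*, which encodes KAP1, fell by 0.16. *Tet1*, *Uhrf1*, *Ezh2* and *Dnmt1*, for a demethylating enzyme, a maintenance factor, a Polycomb methyltransferase and the maintenance methyltransferase, rose by 0.25, 0.22, 0.20 and 0.13. *Zfp445*, another zinc finger gene that acts at ICRs, had a 95% interval of the change from -0.11 to 0.12, and *Aff3*, whose protein binds the IG-DMR, one from -0.28 to 0.58. These values stand beside those of the domain in the same libraries, and their part in them was not tested.

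Genes of the pathways that DLK1 and DIO3 act in were also examined. Of 17 Notch and thyroid hormone genes, 11 were tested, 1 was called higher and 5 lower, with a median change of -0.21. Over all tested genes 18.8% were called higher and 22.3% lower. *Hes1*, a transcriptional target of Notch, read 10.8, 10.9 and 10.2 FPKM in WT and 15.9 and 16.9 in KO and rose by 0.62. *Jag2*, a ligand, fell by 0.97, *Thra*, a thyroid hormone receptor, by 0.80, and the receptors *Notch3*, *Notch4* and *Notch1* by 0.74, 0.65 and 0.21. The other deiodinases were under the filter, with *Dio2* at 0 in all 5 libraries.

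**Figure D5:**
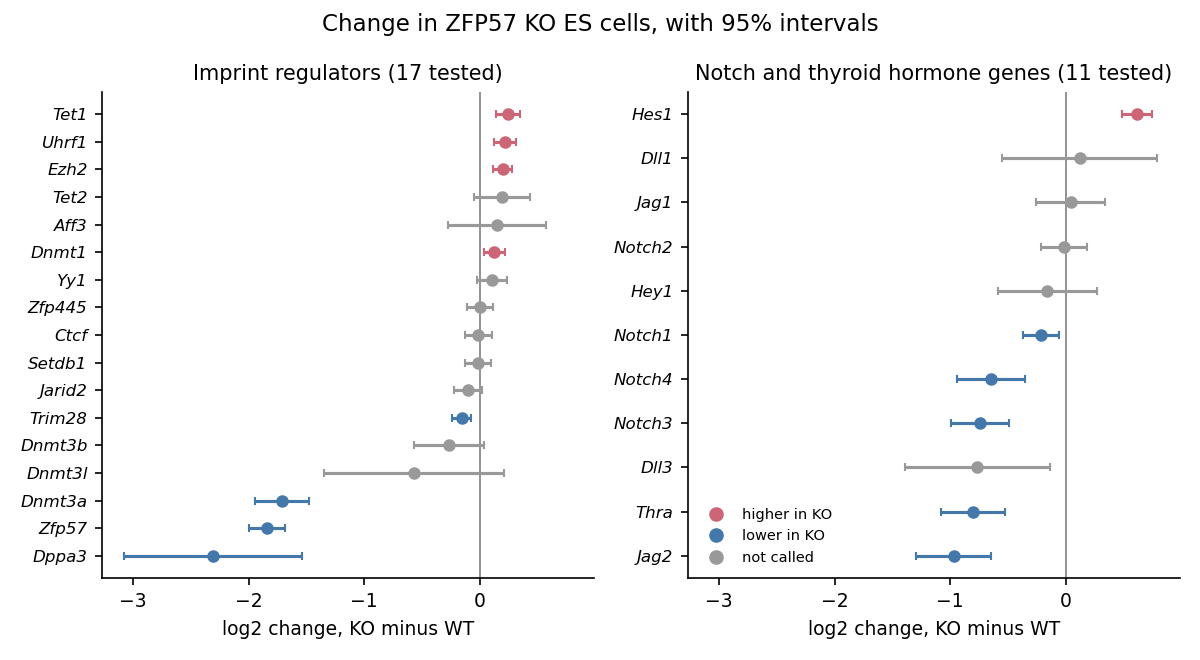
Log2 change, KO minus WT, with 95% intervals, of the 17 tested imprint regulators and the 11 tested Notch and thyroid hormone genes, coloured by whether the gene was called higher, lower or not at all. Dppa3, Zfp57 and Dnmt3a lie furthest to the left among the regulators at -2.30, -1.84 and -1.71, and Hes1, at 0.62, is the only gene called higher in the Notch and thyroid hormone list.

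The IG-DMR is one of few ICRs methylated on the paternal chromosome. Among the genes of the others, *H19* read 0.44, 0.62 and 0.52 FPKM in WT and 0.59 and 0.61 in KO, with a change of 0.17 (95% interval -0.25 to 0.59), and was not called. *Igf2* read 0.17, 0.12 and 0.08 FPKM in WT and 0.23 and 0.21 in KO, with a change of 0.54 (95% interval -0.05 to 1.12), and was not called either. *Rasgrf1* was at 0 apart from 0.01 FPKM in KO 2.

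Profiles over the 5 libraries were compared by Euclidean distance between centred log2(FPKM + 0.1) values. Candidates were 9748 tested genes of other chromosomes with a mean of at least 1 FPKM and a span of at least 200 bp. The profiles most like that of *Rian* were those of *Nkx6-2* (0.37), *Cpe* (0.46), *Ebf1* (0.52), *Trh* (0.56) and *Lama1* (0.56). *Meg3* stood at 0.43 and *Mirg* at 0.58 from *Rian*, so 1 of these candidates was nearer to *Rian* than both. For *Meg3* the nearest were *Trh* (0.39), *Tmem117*, *Nt5e*, *Flrt3* and *S100a13* (0.48). *Nkx6-2*, *Cpe*, *Ebf1*, *Tmem117*, *Nt5e* and *Flrt3* had WT means under 1 FPKM and reached that limit only through their KO values. *Trh*, which encodes thyrotropin-releasing hormone, read 18.5, 22.3 and 14.7 FPKM in WT and 87.0 and 71.9 in KO. The profile of *Dlk1* lies under the pseudocount of 0.1 in every library and is flattened by it, so its nearest genes are not given. These distances describe 5 libraries that differ mainly by group.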

How the data were processed

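RNA-seq libraries (ScriptSeq v2, ribosomal RNA depleted, paired 150 bp reads) were mapped to mm10, and the authors deposited FPKM per gene, rounded to 2 decimals. The submitters' processing notes name FastQC 0.11.5, Trim Galore 0.2.7, BWA 0.6.2, Picard, MACS2 2.1.0 and STAR 2.5.2. The counting program, its annotation and its use of strand are not given in the sources used here. ZFP57 peaks are deposited positions of peaks called in at least 2 WT replicates, with no measured value. Nor do these sources give the origin of the hybrid list.

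Genes were placed on RefSeq GRCm38 by symbol (23189) or synonym (1095), while 13 matched more than 1 gene and 112 matched none. The test was limma 3.58.1 (R 4.3.3, eBayes with trend) on log2(FPKM + 0.1), run for the 14612 genes whose mean over the 5 libraries reached 0.1 FPKM, at a Benjamini-Hochberg adjusted p under 0.05. It was checked on simulated data. Fold changes on this scale understate those of low genes. In 90.3 to 92.9% of 411 to 457 short genes FPKM times length fell on whole multiples of 1 step, compared with 5.03 to 5.80% by chance, which puts 1 fragment on 1 kb at 0.0170 to 0.0196 FPKM. The depth of the ChIP-seq is unknown. Peaks were searched for TGCCGC on both strands with pysam 0.24.0, and other steps used Python 3.11.15, pandas 2.3.3, scipy 1.17.1 and matplotlib 3.10.9. Alternatives covered pseudocounts, filters, scaling, the variance model, a replicate block and single libraries.

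The genes, lists and tests were chosen with earlier results of these data known. By rule the text names the 6 genes, *Zfp57*, the called genes of the flanking, regulator and Notch and thyroid hormone lists, the genes of other paternally methylated ICRs, *Begain*, *Dio3os*, the RNA antisense to *Rtl1* and the 5 nearest profiles of *Rian* and *Meg3*, while those of *Dlk1*, which the rule also covers, were left out because the pseudocount sets them. Marker genes, *Zfp445*, *Aff3*, *Dio2*, *Slc25a47* and *Mir342* are named beside them, chosen after their values were seen. KAP1, H3K9me3 and DNA methylation data and the hybrid and maternal-zygotic lines were not analysed here.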

Additional observations from a re-analysis of the deposited data

How the results depend on the processing

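Of 164 alternative values computed for the results above, 144 kept their direction and their side of the threshold, or moved by less than the limit set for values and counts. *Meg3*, *Rian* and *Mirg* were called higher under each of their 14 alternatives, with log2 fold changes of 1.89 to 2.34, 2.42 to 2.65 and 2.48 to 3.11. *Dio3* kept its direction but lost its call with no filter on low values (-0.57, adjusted p = 0.052), under quantile normalization (-0.40) and under the replicate block (-0.64), and ranged from -0.67 to -0.48 when single libraries were left out, none of which kept the call. The first tests more genes and the last uses fewer samples, but the cause of each loss was not tested. With no filter *Rtl1* was called (limma's adjusted p = 0.0084) and *Dlk1* was not (0.35), so the 4 called genes then held *Rtl1* in place of *Dio3*. For *Rtl1* and *Dlk1*, which are under the filter otherwise, the difference was 3.19 and -0.61 with a pseudocount of 0.01, and 0.18 and -0.019 with a pseudocount of 1. Leaving out single libraries gave 0.91 to 1.39 for *Rtl1* and -0.28 to -0.036 for *Dlk1*, and a lone KO library was assumed to vary like the WT. With a mean of at least 1 FPKM *Dio3*, *Rtl1* and *Dlk1* gave no value, nor did *Rtl1* and *Dlk1* under quantile normalization.

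Same-numbered libraries had correlations of -0.07 and -0.04 in their deviations from the group means, which gave no sign of pairing. With 2 KO libraries these deviations mirror each other, so the check is weak and cannot exclude pairing. With the replicate block 3012 genes were called in place of 6002, 2 flanking genes in place of 6 and 4 regulators in place of 8. Leaving out single libraries gave 4146 to 4831 called genes. The ratios of *Rian* and *Mirg* over *Meg3* kept their direction under their 6 alternatives. The exact permutation test used for them cannot go below 0.1 with 3 against 2 libraries. The hybrid list held 1 peak of the domain in place of 2. *Dlk1* rests on about 2.1 to 9.5 fragments per library, or 1.1 to 10.7 with rounding, which limits what its values can show.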
